A study of Mus musculus with 10 samples.

Results

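Cytochrome P450 families 1 to 4 were followed across 10 RNA-seq libraries of cells sorted from mouse liver. Members were the protein-coding genes whose symbol is Cyp1, Cyp2, Cyp3 or Cyp4 followed by a letter and a number, and 81 of the 29972 genes with a value met that rule, 3 in family 1, 49 in family 2, 9 in family 3 and 20 in family 4. One of them, Cyp2ab1, has 2 letters in its subfamily name and was kept. Short reads cannot be assigned with certainty between near-identical genes, so Cyp2a4 with Cyp2a5, Cyp3a41a with Cyp3a41b and Cyp4a12a with Cyp4a12b were each summed, which left 78 units. Of these, 51 reached 1 TPM in at least 3 libraries and were tested, and 27 did not.

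Peripheral cholangiocytes, the cells that form the lining of the small bile ducts, gave 7 libraries: 4 called hepatocyte-derived by the labels (HpC) and 3 called simply peripheral (pC). Hepatocytes (H) gave 3. HpC came from Alb-Cre+/-;Rbpjf/f;Hnf6f/f mice at postnatal days P124, P151, P144 and P139 for HpC1 to HpC4, and H from mice of the same genotype at P134, P139 and P139. The pC libraries came from Rbpjf/f;Hnf6f/f mice without Cre, at P151, P119 and P142 for pC1 to pC3, so the floxed alleles were shared by all 3 groups. The albumin promoter drives Cre in cells of the hepatocyte and biliary lineage, Rbpj encodes the DNA-binding partner of Notch, and Hnf6 is another name of Onecut1, a transcription factor of bile duct formation. All mice were of a mixed C57BL/6, FVB and CD1 background. The labels do not say whether H2 and H3, which share an age, came from separate animals, or whether HpC4, of the same age and genotype, shares an animal with either, so the p-values describe the spread between these samples, part of which may be technical.

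All values below are scaled TPM, which is the deposited TPM (a transcript's share of the library corrected for its length) divided by 1 factor per library, unless another scale is named. The number of reads is unknown, so counting error and detection limits cannot be stated. Libraries had between 10230 and 14490 genes at 1 TPM or more. Rbpj stood at 4.09 to 6.24 in HpC, 5.51 to 6.82 in pC and 1.20 to 1.59 in H, and Onecut1 at 19.3 to 46.3, 63.0 to 81.9 and 46.0 to 109; whole-gene sums do not check a floxed allele. All 9 cholangiocyte markers were higher in HpC and in pC than in H, and all 12 hepatocyte markers that are not P450 genes were lower in both (limma, Benjamini-Hochberg adjusted p under 0.05). Over all genes tested, 30.7% and 31.1% were higher in HpC and in pC than in H, and 29.2% and 28.6% were lower. The cholangiocyte libraries still held the hepatocyte markers, with medians of 0.269% to 5.23% of their mean level in H and sums of 4736 to 10439 deposited TPM in HpC and 1913 to 4725 in pC, against 74730 to 75158 in H. HpC1 and HpC2 stood apart. In HpC1 the 10 pancreatic acinar markers summed to 167443 deposited TPM, against 1668 in pC3, 256 in HpC3 and at most 25.3 elsewhere. In HpC2 the 9 stratified squamous markers summed to 45168 deposited TPM, against at most 7.43 in any other library.

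P450 enzymes are haem proteins of the endoplasmic reticulum that insert an oxygen atom into lipophilic substrates, with electrons passed on from NADPH by P450 oxidoreductase. Families 1 to 3 oxidise drugs, carcinogens, steroids and bile acids, and family 4 hydroxylates the ends of fatty acids and eicosanoids. In liver they are made mainly by hepatocytes, most strongly near the central vein for many members, and in mice several depend on sex through the pattern of growth hormone secretion. Cholangiocytes are known for secretion and transport rather than for drug oxidation.

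The members lie in gene clusters that arose by duplication, and closeness of sequence decides which members can be read apart. On mm10, chromosome 7 holds 13 members between 25802475 and 27158668, from Cyp2s1 through the Cyp2a and Cyp2b genes to Cyp2f2 and Cyp2t4. The largest cluster is that of Cyp2c on chromosome 19, with 14 members between 39007019 and 40187333. On chromosome 17, 8 Cyp4f genes lie between 32452723 and 32947402, on chromosome 15, 8 Cyp2d genes between 82370527 and 82794294, and on chromosome 5, 8 Cyp3a genes between 145345279 and 146113287. Chromosome 4 holds 8 Cyp2j genes between 96027534 and 96664154 and 10 genes of Cyp4a, Cyp4b and Cyp4x between 115106323 and 115647723. The coding sequences of Cyp2a4 and Cyp2a5 (GENCODE M21) have the same length, 1485 bases, and differ at 23 of them, so that 98.5% are identical. Their closeness is shown by coding bases 596 to 655 of each, 5′ to 3′ with the differing bases in capitals, a stretch with 4 differences that is longer than a read:
Cyp2a4: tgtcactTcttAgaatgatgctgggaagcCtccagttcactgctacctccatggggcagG
Cyp2a5: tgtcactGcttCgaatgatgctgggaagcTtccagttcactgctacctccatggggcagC
Outside such stretches identical runs reach 216 bases. Cyp3a41a and Cyp3a41b differ at 2 of 1515 coding bases, and only 1 of these falls in coding bases 61 to 120, again in capitals:
Cyp3a41a: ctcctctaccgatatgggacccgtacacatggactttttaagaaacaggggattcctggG
Cyp3a41b: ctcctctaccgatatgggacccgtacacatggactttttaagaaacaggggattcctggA
The members on which the comparison of HpC with pC turns share less sequence. Cyp4f14 and Cyp4f15 are identical at 80.0% of aligned coding bases, and 2.72% and 2.45% of the 50-base windows of their longest transcripts also occur in another gene. For Cyp2d22 that share was 6.14% and for Cyp2j5 0.174%. The longest transcript of Cyp4f15 holds only 16.6%, 11.7% and 22.3% of its TPM in HpC, pC and H, so its share says little about the level measured.

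The stretch before the start of a P450 gene was read from RefSeq (GRCm38.p6, the build also called mm10) for the 66 of 81 members that matched by symbol. In the 250 bases before the start, the median number of CpG was 2 over these members and 6 over all 32851 promoters in the table. The AHR core GCGTG, read on both strands, was present in 18.2% of the members' windows and in 28.2% of all windows, and the HNF1 half-site GTTAAT, on both strands, in 13.6% and 6.43%. GCGTG itself contains a CpG, and neither motif contains the other. For 3 members the sequence is shown, cut where an annotated exon begins, with CpG and GTTAAT in capitals: Cyp2a4 (chr7:26306942-26307168, plus strand), which belongs to the unit highest in hepatocytes, Cyp2e1 (chr7:140763569-140763738, plus strand), a hepatocyte member with no CpG in the stretch printed, and Cyp4f15 (chr17:32685409-32685626, plus strand), a member lower in HpC than in pC:
Cyp2a4: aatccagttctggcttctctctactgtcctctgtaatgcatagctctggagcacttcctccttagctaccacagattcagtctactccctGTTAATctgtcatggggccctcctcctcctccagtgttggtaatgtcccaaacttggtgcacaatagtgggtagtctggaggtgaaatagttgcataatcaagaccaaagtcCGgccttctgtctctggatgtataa
Cyp2e1: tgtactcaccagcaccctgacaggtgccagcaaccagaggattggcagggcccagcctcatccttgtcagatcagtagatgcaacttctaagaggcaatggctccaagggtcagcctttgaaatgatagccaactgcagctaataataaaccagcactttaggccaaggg
Cyp4f15: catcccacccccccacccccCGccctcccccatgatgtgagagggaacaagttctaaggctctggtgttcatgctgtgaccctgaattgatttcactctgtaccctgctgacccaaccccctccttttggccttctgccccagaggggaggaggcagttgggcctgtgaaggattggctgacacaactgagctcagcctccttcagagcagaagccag
Over the whole 250 bases Cyp2a4, Cyp2e1 and Cyp4f15 hold 1, 2 and 2 CpG, while Cyp2s1, Cyp2r1 and Cyp4v3 hold 15, 16 and 17. The window of Cyp2a5 also holds 1 GTTAAT. A match of letters is a description and no binding was measured.

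Hepatocytes carried the P450 repertoire at high levels. The members made up 0.660% ± 0.0336 of the TPM of an H library (SD, n = 3), against 0.0367% ± 0.0193 in HpC (n = 4) and 0.0330% ± 0.0103 in pC (n = 3). Between 47 and 50 of the 78 units reached 1 deposited TPM in H, 24 to 45 in HpC and 24 to 38 in pC. In these bulk samples, fewer cells of a type and less RNA per cell cannot be told apart.

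**Figure D1:**
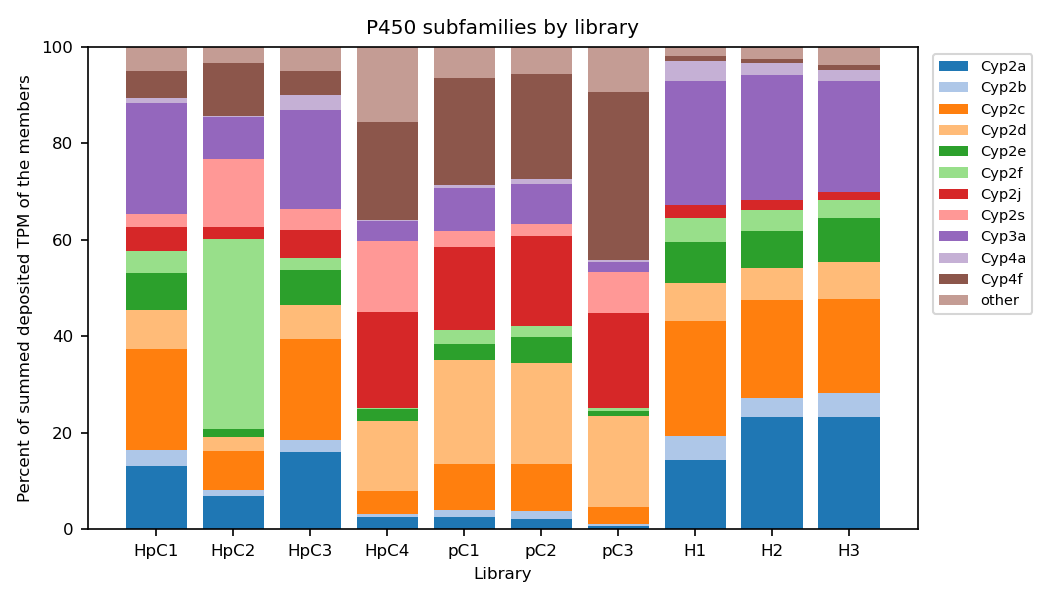
Share of each P450 subfamily in the summed deposited TPM of the members, in percent (y axis), for each of the 10 libraries (x axis); each bar adds up to 100%. Cyp2a, Cyp2c and Cyp3a filled most of each H bar, Cyp4f took 21.7% to 35.0% in pC and 4.92% to 20.5% in HpC, and Cyp2f took 39.4% in HpC2. The Cyp4f part of 10.9% in HpC2 is mostly Cyp4f39, which was near 0 in the other libraries.

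The highest unit in hepatocytes was Cyp2a4/Cyp2a5, which hydroxylates coumarin and testosterone and which stood at 1393, 2877 and 2553 in H1 to H3. Its levels were 44.9, 31.9, 45.6 and 2.28 in the HpC libraries and 5.18, 4.72 and 0.702 in the pC libraries. All H libraries were far above all cholangiocyte libraries, and H1 was the lowest of the 3. Next came Cyp3a41a/Cyp3a41b, steroid and drug oxidases of female liver, at 1410, 1554 and 1098 in H. They stood at 16.1, 11.3, 35.6 and 0.541 in HpC and at 6.73, 8.57 and 0.385 in pC. Cyp2e1, which oxidises ethanol and paracetamol, stood at 985, 1066 and 1132 in H, at 31.4, 8.61, 22.9 and 2.43 in HpC and at 7.87, 14.3 and 1.41 in pC. Here too HpC4 and pC3 were the lowest of their groups, and this order recurred in most members high in hepatocytes.

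Cyp3a11, the main drug and steroid oxidase of the Cyp3a cluster, stood at 979, 1201 and 927 in H, 56.2, 24.0, 20.3 and 0.654 in HpC and 7.61, 7.03 and 1.03 in pC. Cyp2c70, which makes the muricholic acids of mouse bile, stood at 869, 920.0 and 681 in H, 35.3, 12.4, 15.1 and 0.926 in HpC and 4.79, 3.74 and 1.07 in pC. Neighbours in this order did not always differ beyond their spread: the H means of Cyp2e1 and Cyp3a11 were 1061 ± 73.8 and 1036 ± 145 (SD, n = 3). Cyp2c29, which forms epoxides from arachidonic acid, varied least among the 10 highest, at 772, 741 and 744 in H, a coefficient of variation of 2.28%. It stood at 16.3, 8.46, 15.5 and 1.20 in HpC and at 4.66, 6.09 and 1.84 in pC. The coefficient of variation in H had a median of 16.7% over the 40 tested members with a mean of at least 10 there. Cyp2b10, a target of the receptor CAR, varied most, by 65.4%, with 23.7, 30.9 and 76.2 in H1 to H3.

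The remaining members among the 10 highest were Cyp3a25, Cyp2f2, Cyp2d26 and Cyp2c39. Cyp3a25, another steroid oxidase of the Cyp3a cluster, stood at 476, 643 and 684 in H, 17.1, 5.07, 4.21 and 0.629 in HpC and 3.96, 4.24 and 0.146 in pC. Cyp2d26 stood at 509, 526 and 554 in H, 12.6, 5.48, 8.61 and 0.946 in HpC and 1.97, 4.08 and 0.383 in pC. Cyp2c39, which oxidises retinoic acid, stood at 427, 524 and 425 in H, 11.3, 3.82, 7.29 and 0.172 in HpC and 2.38, 3.87 and 0.495 in pC. Each fell from H to both cholangiocyte groups with no overlap of libraries. For Cyp2a5, Cyp3a25 and Cyp2c70, the longest protein-coding transcript held 34.7%, 15.3% and 36.8% of the gene's TPM in H, so their levels rest largely on shorter transcript models. Cyp2f2 is described further on with the periportal list.

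**Figure D2:**
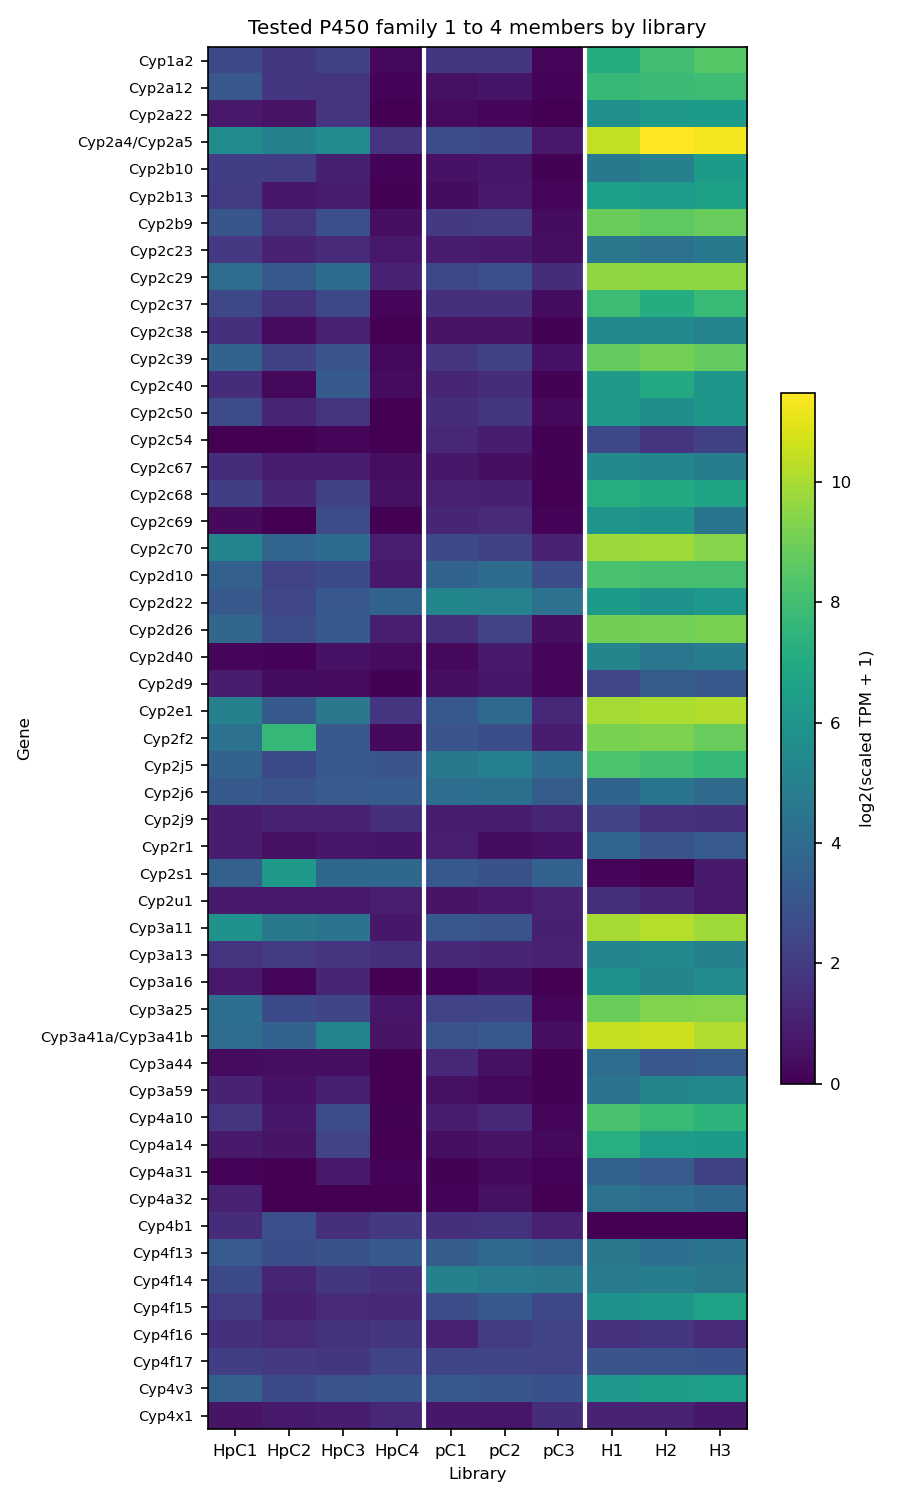
Level of the 51 tested members (rows) in the 10 libraries (columns), as log2(scaled TPM + 1) by colour, with white lines between groups. Most members are bright in H alone, and HpC4 and pC3 are the darkest cholangiocyte columns.

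The first comparison set HpC beside hepatocytes of the same genotype. Of the 51 tested members, 46 were lower in HpC than in H, 2 were higher and 3 did not pass (limma on log2(scaled TPM + 1), Benjamini-Hochberg adjusted p under 0.05 over 14763 genes). Over all genes tested 29.2% were lower and 30.7% higher. The filter asked for 1 TPM in 3 libraries and H has 3, so a member could enter through H alone. That favours calls of lower than H, here and for pC, and the same filter held for all genes. With no filter, 53 of 75 units were lower in HpC than in H and 51 in pC. The share of all genes at that setting was not taken. The median difference of the members was -4.61 on the log2 scale, against 0.08 over all genes. Cyp3a41a/Cyp3a41b had the largest fall, -7.01 ± 0.98 (SE; limma adjusted p = 0.000142). Every tested member of Cyp1a, Cyp2a, Cyp2b, Cyp2c, Cyp2d, Cyp2e, Cyp2f, Cyp2r, Cyp3a, Cyp4a and Cyp4v fell from H to HpC. All 3 Cyp2j members and 4 of 5 Cyp4f members were also called lower on this scaling, of which Cyp2j6, Cyp2j9, Cyp4f13 and Cyp4f17 lost the call on TPM as deposited. On that scale Cyp2j6, Cyp2j9 and Cyp4f17 in HpC were at 123.5%, 116.5% and 111% of their mean in H, so the order of the means turned. Cyp2j9 also lost the call when HpC1, HpC2, HpC3 or H1 was left out. Cyp2u1, Cyp4f16 and Cyp4x1 did not pass, with 95% intervals of the log2 difference of -0.81 to 0.09, -0.60 to 0.62 and -0.65 to 0.44.

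Ordinary cholangiocytes were compared with the same H libraries, which came from mice with Cre, while pC did not. In pC, 44 of 51 members were lower than in H, 2 were higher and 5 did not pass, where 28.6% of all genes were lower and 31.1% higher (limma, adjusted p under 0.05). The median log2 difference was -4.73 for the members and 0.11 for all genes. Cyp2a4/Cyp2a5 had the largest fall, -9.11 ± 0.94 (limma adjusted p = 1.64e-05). The 5 that did not pass were Cyp2j6, Cyp2u1, Cyp4f14, Cyp4f16 and Cyp4x1. Both comparisons share the H libraries, so their likeness is not a separate result. Scaling matters here, because the factors were 1.53 to 1.59 in pC and 0.499 to 0.585 in H. On TPM as deposited the median of all genes moved to 1.20 for pC against H and to 0.87 for HpC against H. Then 39 members were lower and 5 higher in pC, and 42 lower and 2 higher in HpC, while 63.4% of all genes came out higher in pC than in H and 8.49% lower. For HpC against H the share of all genes was not taken on that scale. Among members called lower in pC, the order of the means turned for Cyp2d22, Cyp2j9, Cyp4f13 and Cyp4f17, and Cyp4f13 for example was at 164% of its mean in H.

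As a share of the hepatocyte level, what remained was small for most members. Cyp2e1 in HpC was 1.54% of its mean in H and in pC 0.742%, or 3.04% and 2.19% on TPM as deposited. For Cyp3a11 the shares were 2.44% in HpC and 0.504% in pC, and for Cyp2a4/Cyp2a5 1.37% and 0.155%. The share varied within each role. Among fatty acid hydroxylases Cyp4a10 was at 0.913% of H in HpC and Cyp4a14 at 1.29%, and among drug and steroid oxidases Cyp2d22 was at 12.0% and Cyp3a13 at 7.09%. Cyp4v3, another fatty acid hydroxylase, was at 9.26% of H in HpC and 9.05% in pC, with 10.6, 4.91, 6.72 and 7.35 in HpC, 7.92, 7.37 and 6.41 in pC and 69.2, 83.2 and 87.3 in H. The groups HpC and pC overlapped fully for it, and the 95% interval of their log2 difference was -0.49 to 0.47. Cyp2r1, which makes 25-hydroxyvitamin D, fell from 12.6, 6.999 and 8.91 in H to 0.443 to 0.868 in HpC and 0.293 to 0.937 in pC.

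Only Cyp2s1 and Cyp4b1 were higher in both cholangiocyte groups than in H among the 51 tested members. Of all genes tested, 30.7% were higher in HpC than in H and 31.1% in pC. Cyp2s1, a P450 of epithelia outside the liver that responds to the dioxin receptor AHR, stood at 10.6, 72.0, 13.6 and 13.9 in HpC, at 7.83, 6.31 and 11.4 in pC and at 0.167, 0 and 0.756 in H. It lies at chr7:25802475-25816913 on the minus strand, at the edge of the cluster in which all 7 other tested units were lower in both cholangiocyte groups than in H. Among all genes, 29.2% were lower in HpC than in H and 28.6% in pC. The log2 difference from H was 4.03 ± 0.56 for HpC (limma adjusted p = 0.000137) and 2.87 ± 0.60 for pC (limma adjusted p = 0.0021). HpC2 was the highest by far, and without it the log2 difference of HpC from H was 3.42 and still called by limma. Of the 50-base windows of its longest transcript, 6.78% are shared with the overlapping gene Gm26707, but that transcript holds only 5.28% of its TPM in HpC and 13.2% in pC.

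Cyp4b1, a P450 of lung and other airway and urinary epithelia that hydroxylates fatty acids, stood at 1.76, 5.89, 2.06 and 2.93 in HpC and at 2.06, 2.24 and 1.11 in pC. It was listed at 0 in all 3 H libraries, so no fold is given; the limma adjusted p was 0.00028 for HpC and 0.00297 for pC against H. It lies at chr4:115624725-115647723 on the minus strand, next to the Cyp4a genes, of which all 4 tested were lower than in H. Among all genes, 29.2% were lower in HpC than in H and 28.6% in pC. Levels were low and overlapped between HpC and pC. Neither gene differed between HpC and pC past the threshold, with log2 differences of 1.16 (95% interval -0.10 to 2.41) for Cyp2s1 and 0.50 (-0.18 to 1.17) for Cyp4b1.

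Ordinary cholangiocytes also held some Cyp4f and Cyp2j members near the hepatocyte level on this scaling. Cyp4f14 hydroxylates leukotriene B4 and thereby ends its signal. It stood at 32.2, 26.5 and 23.5 in pC and at 24.9, 27.8 and 22.7 in H, groups that overlapped, with a log2 difference of 0.11 (95% interval -0.57 to 0.80). Cyp2j6, an arachidonic acid epoxygenase, stood at 16.9, 17.7 and 9.64 in pC and at 12.1, 21.1 and 14.8 in H (interval -0.69 to 0.45). Cyp4f16 stood at 1.15, 2.95 and 4.03 in pC and 2.08, 2.48 and 1.55 in H (interval -0.44 to 0.87). On TPM as deposited these 3 were higher in pC than in H, so their place relative to H depends on the scaling. The longest transcript of Cyp4f16 held 0.0053% of its TPM in pC, so its low level rests on shorter transcript models. The 3 highest members in pC were Cyp2d22, Cyp4f14 and Cyp2j5, none of which was among the 10 highest in H. Together the Cyp4f genes took 26.3% ± 7.56 of the members' TPM in pC (SD, n = 3), 10.5% ± 7.20 in HpC (n = 4) and 1.05% ± 0.166 in H (n = 3). The HpC mean includes Cyp4f39, which stood at 49.3 deposited TPM in HpC2 and at most at 0.277 in any other library. In HpC2 all members summed to 588 deposited TPM and the Cyp4f share was 10.9%, so most of that share is Cyp4f39.

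The direct comparison of the 2 cholangiocyte groups asked whether HpC matched pC in these enzymes. These groups differ in Cre genotype as well as in cell origin, which cannot be told apart. Of 51 members 4 were lower in HpC than in pC and none was higher, where 2.55% of all genes tested were lower and 2.0% higher (limma, adjusted p under 0.05). In percent of the members, 7.84% were lower. At an unadjusted p under 0.05, 10 members differed, 3 of them higher in HpC. The median log2 difference of the members was 0.39, against -0.01 over all genes. The 4 lower members belong to the Cyp4f, Cyp2d and Cyp2j subfamilies.

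Cyp4f14 (chr17:32905070-32917342, minus strand) had the largest difference. It stood at 5.07, 1.28, 2.65 and 2.03 in the HpC libraries, against 32.2, 26.5 and 23.5 in pC. Every HpC library was below every pC library, and the pC mean was 9.93 times the HpC mean. The log2 difference was -3.0 ± 0.29 (SE; limma adjusted p = 0.000625). It was called under every alternative tried, with a highest adjusted p of 0.00803. HpC was also below H, by -2.89 ± 0.29 (limma adjusted p = 1.22e-05), so that HpC lay below both other groups while pC and H overlapped.

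Cyp4f15 (chr17:32685627-32703352, plus strand), a close relative in the same cluster, stood at 3.12, 1.02, 1.56 and 1.51 in HpC, 5.63, 8.66 and 4.70 in pC and 59.6, 66.9 and 98.4 in H. The HpC and pC libraries did not overlap, and the log2 difference was -1.40 ± 0.28 (limma adjusted p = 0.021). Unlike Cyp4f14, it was far below hepatocytes in both cholangiocyte groups, with -4.78 ± 0.28 in HpC and -3.38 ± 0.30 in pC (limma adjusted p = 3.96e-07 and 6.14e-06). Its call against pC was lost without HpC3 (adjusted p = 0.0594), without pC1 (0.0668), without pC2 (0.102) or without HpC4 and pC3 together (0.0617). It was also lost with the replicate block (0.0866) and with only HpC and pC in the fit (0.0534), and over protein-coding transcripts alone the log2 difference was -0.75 (0.0795). Of the other tested Cyp4f genes, Cyp4f13 stood at 5.86 to 8.81 in HpC and 9.56 to 14.3 in pC (adjusted p = 0.144), and Cyp4f16 and Cyp4f17 did not pass either.

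Cyp2d22 (chr15:82370527-82380260, minus strand), a member of the drug-oxidising Cyp2d subfamily, stood at 8.25, 4.44, 7.70 and 11.6 in HpC and at 37.4, 33.3 and 19.3 in pC. In H it stood at 74.7, 57.4 and 67.8, so the 3 groups did not overlap at all and pC lay between. The log2 difference of HpC from pC was -1.79 ± 0.30 (limma adjusted p = 0.008) and it was called under every alternative, with a highest adjusted p of 0.048 without pC2. In pC it was below H by -1.17 ± 0.32 (limma adjusted p = 0.00928), but on TPM as deposited that difference was 0.36 (limma adjusted p = 0.473). The neighbouring Cyp2d10 stood at 10.6, 4.10, 4.99 and 0.744 in HpC, 11.7, 15.7 and 5.56 in pC and 289, 271 and 276 in H, with a log2 difference of HpC from pC of -1.16 (95% interval -2.37 to 0.04; limma adjusted p = 0.30).

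Cyp2j5 (chr4:96628773-96664154, minus strand), an arachidonic acid epoxygenase of liver and kidney, stood at 11.3, 5.002, 8.20 and 7.06 in HpC, 23.7, 29.9 and 15.4 in pC and 303, 258 and 202 in H. The 3 groups did not overlap. The log2 difference of HpC from pC was -1.43 ± 0.28 (limma adjusted p = 0.0185), and that of pC from H -3.44 ± 0.30 (limma adjusted p = 5.17e-06). The call against pC was lost without pC1 (adjusted p = 0.0781) or without pC2 (0.095), with the replicate block (0.0501) and with only HpC and pC in the fit (0.0535). Cyp2j6, in the same cluster, stood at 8.53, 7.03, 8.78 and 9.12 in HpC, each below every pC library, and its difference of -0.71 did not pass (limma adjusted p = 0.146).

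**Figure D3:**
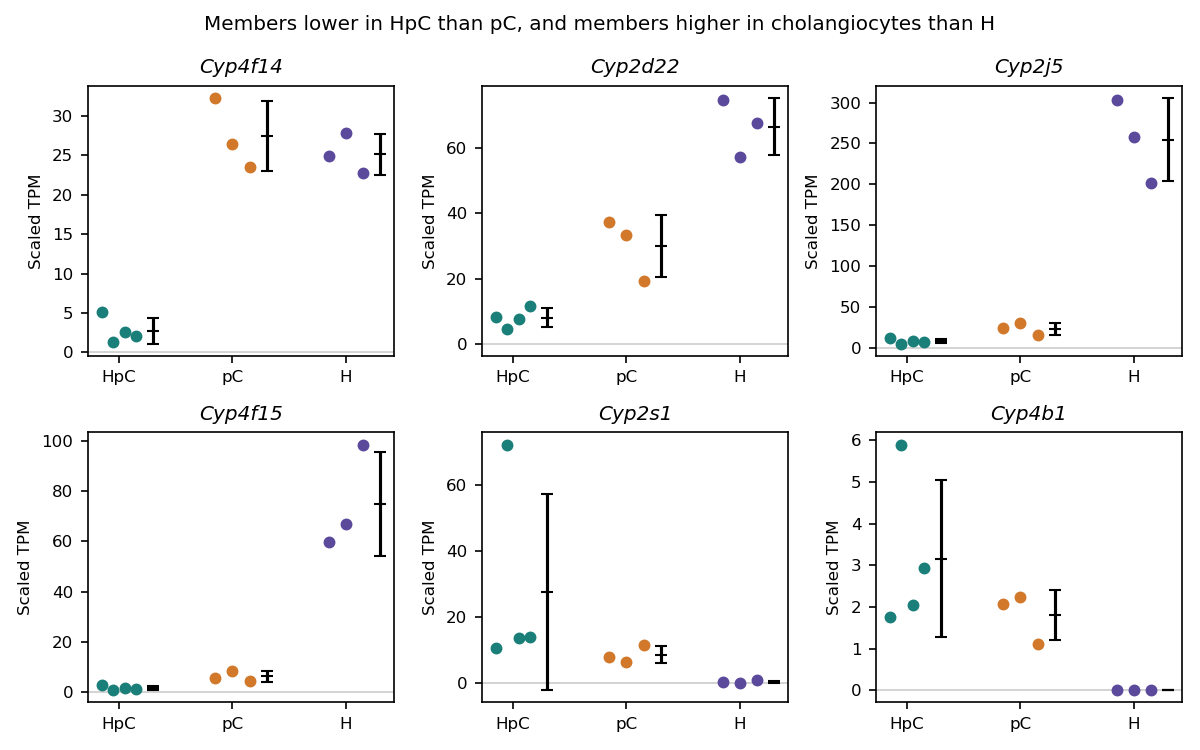
Scaled TPM (y axis, a linear scale that differs between panels) of the 4 members lower in HpC than pC and the 2 members higher in cholangiocytes than in H; each point is 1 library, and the bars give the mean ± SD of each group. For Cyp4f14 all HpC points lie at 1.28 to 5.07 and all pC points at 23.5 to 32.2, and Cyp2s1 reaches 72.0 in HpC2.

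No member was called higher in HpC than in pC, although 35 of 51 differences were positive. The largest was that of Cyp2a4/Cyp2a5, 2.48 ± 0.88 on the log2 scale (95% interval 0.53 to 4.44; limma adjusted p = 0.167). In HpC1 to HpC3 it stood at 31.9 to 45.6, above all pC libraries at 0.702 to 5.18, whereas HpC4 stood at 2.28. Without HpC4, 5 members were higher in HpC than in pC and 4 lower, where 2.42% of all genes were higher and 3.03% lower: the 5 were Cyp2a12, Cyp2a4/Cyp2a5, Cyp2c29, Cyp2c70 and Cyp3a11. For Cyp2a4/Cyp2a5 the log2 difference then was 3.40 (limma adjusted p = 0.00741). Without HpC4 and pC3 together, in which the median of the hepatocyte markers was lowest, 3 were higher and 3 lower, where 1.52% and 1.93% of all genes were. The 3 higher were Cyp2a4/Cyp2a5, Cyp2c70 and Cyp3a11. The libraries left out were chosen after their values were seen. Without HpC1 and HpC2 together none was higher and the same 4 members were lower, where 2.47% of all genes were higher and 1.92% lower. Other settings moved the counts too. Taking the replicate number as a block gave 4 higher, where 1.82% of all genes were, and 2 lower, where 2.06% were. Weighting libraries by their fit to the group gave 2 higher and 6 lower, where 5.62% and 6.54% of all genes were. With only HpC and pC in the fit, none was higher and 2 were lower, where 1.21% and 1.32% of all genes were. Leaving out pC1 gave 0 and 2, where 1.14% of all genes were higher and 1.32% lower, and leaving out pC2 gave 0 and 2, where 0.935% and 0.989% were; both lost Cyp2j5 and Cyp4f15.

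**Figure D4:**
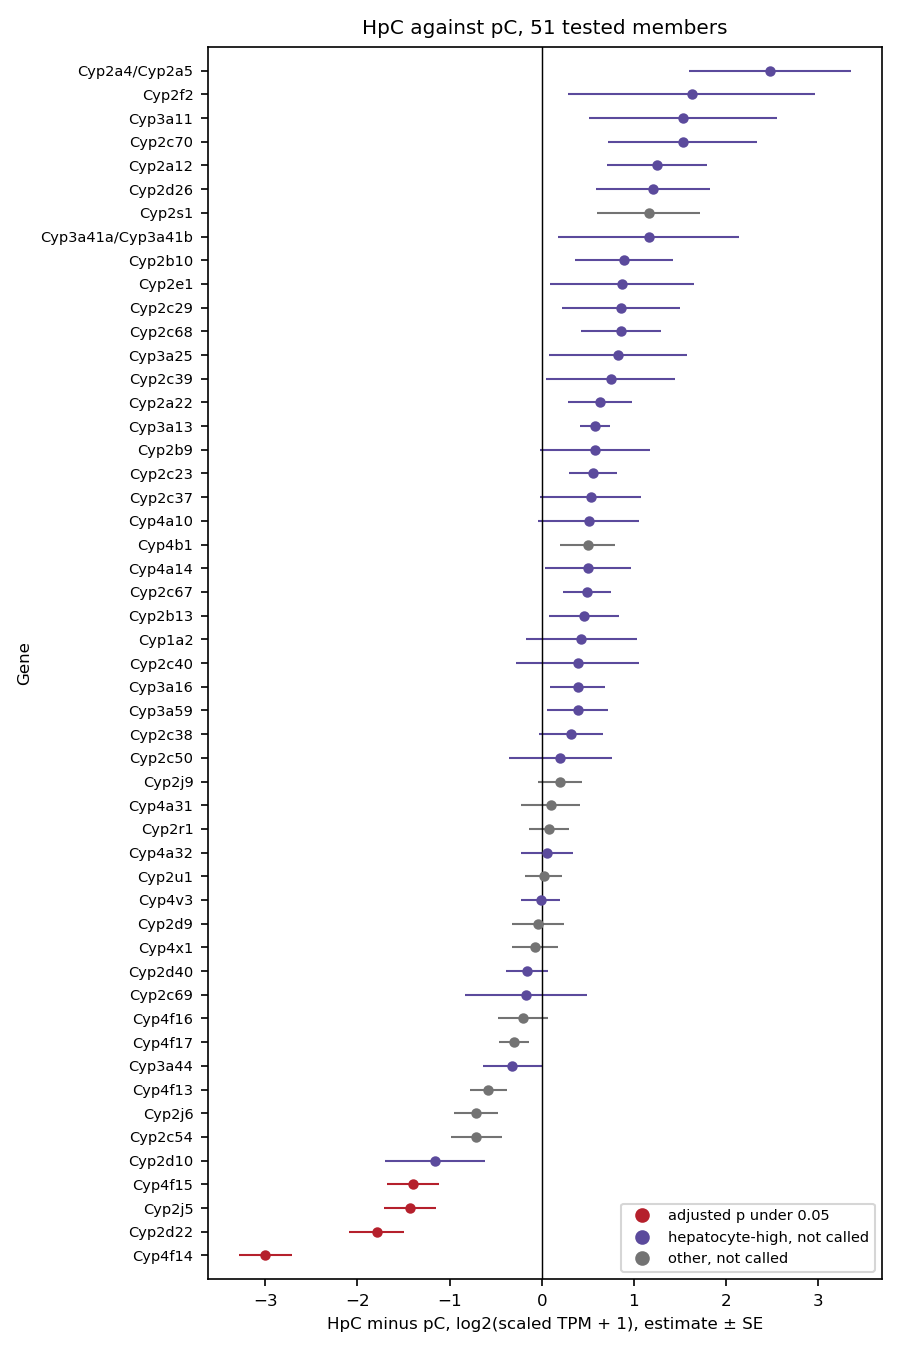
Log2 difference of HpC from pC (x axis, estimate ± SE, on the log2(scaled TPM + 1) scale) for the 51 tested members (y axis, ordered by estimate). Cyp4f14, Cyp2d22, Cyp2j5 and Cyp4f15 at the lower end, in red, passed an adjusted p under 0.05, and no member to the right of 0 did.

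The members high in hepatocytes were read library by library beside hepatocyte markers. For this, 36 tested members with an H mean of at least 10 and at least 10 times the pC mean were taken; they were chosen from these values, so their levels are a description. Their median level, as a percent of the mean in H, was 2.90% in HpC1, 1.10% in HpC2, 2.29% in HpC3 and 0.0929% in HpC4, and 0.836%, 1.02% and 0.123% in pC1 to pC3. The 12 hepatocyte markers had medians of 5.23%, 1.98%, 2.70% and 0.604% in HpC1 to HpC4 and 1.10%, 1.18% and 0.269% in pC1 to pC3. Both sets were lowest in HpC4 within HpC and in pC3 within pC, and highest in HpC1. By summed deposited TPM the order within HpC was another. The markers were lowest in HpC2, at 4736, and highest in HpC3, at 10439, with 5499 in HpC1 and 5815 in HpC4. Among the 36, HpC4 was the lowest HpC library for 29 and pC3 the lowest pC library for 36, and the HpC mean exceeded the pC mean for 31. A low pC mean was a condition of entry and a low HpC mean was not. The choice itself therefore favours that last count, which says nothing about HpC against pC. The part of hepatocyte RNA in these levels was not tested. Of the 4 members lower in HpC than in pC, Cyp2j5 and Cyp4f15 are among the 36, and all 4 had their lowest pC level in pC3. Cyp4f14, Cyp4f15 and Cyp2j5 had their highest HpC level in HpC1, and Cyp2d22 in HpC4. The place of HpC1 depends on the scaling, as its factor was 0.668, against 1.15 to 1.61 in HpC2 to HpC4. On deposited TPM Cyp4f14 and Cyp2j5 were highest in HpC3, at 3.83 and 11.9, and Cyp4f15 in HpC4, at 2.43.

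**Figure D5:**
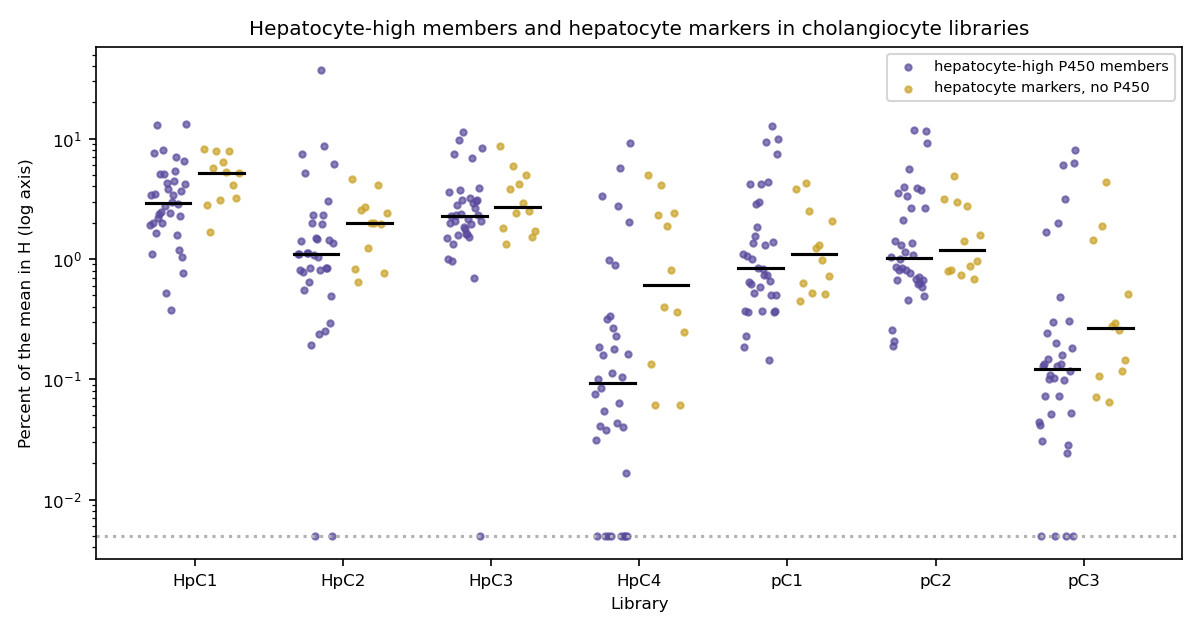
Level as a percent of the mean in H (y axis, log scale) of the 36 hepatocyte-high members and of the 12 hepatocyte markers in the 7 cholangiocyte libraries (x axis); each point is 1 gene or summed unit, black bars are medians, and points on the dotted line are at 0. Both sets of points sit lowest in HpC4 and pC3.

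HpC2, the library with squamous markers, held 3 members far above the other libraries. Cyp4f39, which makes skin barrier lipids in epidermis, stood at 42.8 in HpC2 and at 0 to 0.356 in the other 9 libraries. Cyp2c65 stood at 7.37 there and at most at 0.334 elsewhere, and Cyp2c66 at 1.89 against at most 0.124. These 3 were under the filter and were chosen after their values were seen. Cyp2f2 and Cyp2s1 also peaked in HpC2. The part of squamous cells in these levels was not tested.

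Zonal members were read from lists of members known from the pericentral and the periportal lobule. All 7 pericentral units (Cyp2e1, Cyp1a2, Cyp2a4/Cyp2a5 for the listed Cyp2a5, Cyp2c29, Cyp2c37, Cyp2c50 and Cyp3a11) were lower in HpC and in pC than in H, with median log2 differences of -6.13 and -7.26. Over all genes tested, 29.2% were lower in HpC than in H and 28.6% in pC. None of the 7 units passed between HpC and pC, where 2.0% of all genes were higher and 2.55% lower. Without HpC4, however, Cyp2a4/Cyp2a5, Cyp2c29 and Cyp3a11 were higher in HpC. The deposited TPM of the 7 pericentral units summed to 2673 to 3155 in H, 11.1 to 166 in HpC and 8.82 to 61.2 in pC. The periportal member Cyp2f2, which activates naphthalene and is also made by club cells of the airway, stood at 587, 592 and 452 in H. In HpC it stood at 18.3, 201, 8.27 and 0.234, and in pC at 7.12, 5.86 and 0.857. It was lower in both groups than in H, by -5.22 ± 1.34 and -6.85 ± 1.43 (limma adjusted p = 0.00681 and 0.00211). HpC2 was far above the other 3 HpC libraries, which had a group mean of 57.0 ± 96.3 with it (SD, n = 4), and the interval of the HpC to pC difference was wide, -1.36 to 4.62.

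Members known to be female-predominant in mouse liver were high in H, and those known to be male-predominant were low. The 10 genes of the female-predominant list made up 9 tested units, all of them lower in both cholangiocyte groups than in H. Over all genes tested, 29.2% were lower in HpC than in H and 28.6% in pC. One unit is Cyp2a4/Cyp2a5, which cannot give Cyp2a4 alone and also stands in the pericentral list. Cyp2b9 stood at 484, 398 and 447 in H, 2.43 to 7.32 in HpC apart from 0.378 in HpC4, and 0.320 to 2.95 in pC. Cyp2b13 stood at 89.6, 78.3 and 91.9 in H, Cyp3a16 at 57.7, 36.9 and 45.6, and Cyp3a44 at 16.5, 7.83 and 9.10. Cyp4a14, a fatty acid hydroxylase under PPAR-alpha, stood at 153, 80.8 and 75.5, Cyp2c40 at 72.4, 123 and 66.8, and Cyp2c69 at 60.8, 57.1 and 21.2. In HpC and pC these 6 stayed at or below 8.49. Of the male-predominant list, Cyp4a12a/Cyp4a12b stayed at or below 0.363 in all 10 libraries and Cyp2d9 stood at 4.43, 9.61 and 8.32 in H. The Y-linked genes Ddx3y, Eif2s3y, Kdm5d and Uty summed to 0 to 1.12 deposited TPM in every library. The labels give no sex. Xist was also looked for, but it was not among the genes with a value.

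The partners of P450 enzymes were also lower in cholangiocytes, with smaller median differences than the enzymes, which were not tested against each other. All 8 electron donors and partners were lower in HpC and in pC than in H, with median log2 differences of -2.60 and -2.66. Over all genes tested, 29.2% were lower in HpC than in H and 28.6% in pC. None of the 8 passed between HpC and pC, where 2.0% of all genes were higher and 2.55% lower. With shares that small, the lack of a call among 8 genes says little about them. Por, the oxidoreductase that serves all microsomal P450s, stood at 399, 388 and 362 in H, 103, 138, 106 and 83.9 in HpC and 48.4, 81.9 and 82.2 in pC. That is 28.1% of H in HpC and 18.5% in pC, where Cyp2e1 was at 1.54% and 0.742%. These shares depend on the scaling. In deposited TPM, Por stood at 69.1 to 159 in HpC, 73.9 to 131 in pC and 182 to 233 in H. The calls of this list were not counted on that scale. Cytochrome b5, encoded by Cyb5a, stood at 1379, 1771 and 1688 in H, 95.8 to 184 in HpC and 71.7 to 102 in pC.

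Of 12 genes of haem synthesis and breakdown, 9 were lower in HpC than in H and 9 in pC, against 29.2% and 28.6% of all genes. None passed between HpC and pC, where only 2.0% of all genes were higher and 2.55% lower. The counts against H depend on the scaling and were not taken on TPM as deposited. There Hmox2, called lower in both groups, stood at 83.2 to 95.5 in pC and 56.7 to 68.0 in H. Alas1 stayed below H on that scale, at 48.0 to 49.2 in pC and 317 to 508 in H. Alas1, the rate-limiting enzyme of haem synthesis in liver, stood at 869, 636 and 837 in H, 33.9 to 59.8 in HpC and 30.2 to 31.7 in pC. Hmox1, which breaks haem down, was the 1 gene of the list higher in HpC than in H, with a log2 difference of 0.91 (limma adjusted p = 0.037), at 8.49 to 14.4 in HpC and 2.49 to 8.73 in H.

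Receptors and factors that control P450 genes split by gene. Of 13 tested, 11 were lower in HpC than in H and 10 in pC, against 29.2% and 28.6% of all genes. None passed between HpC and pC, where only 2.0% of all genes were higher and 2.55% lower. Nr1i3, which encodes CAR, the receptor behind induction of Cyp2b10, fell most, from 106, 106 and 151.4 in H to 0.094 to 2.96 in HpC and 0.0885 to 0.739 in pC. Ppara, the receptor behind Cyp4a induction, stood at 85.1, 148 and 174 in H, 2.31 to 8.98 in HpC and 1.18 to 3.47 in pC. Hnf4a, a master factor of hepatocytes, stood at 367, 350 and 321 in H, 47.9 to 85.1 in HpC and 39.6 to 56.1 in pC. Ahr did not pass, with 27.1 to 46.4 in HpC, 25.1 to 30.3 in pC and 31.2 to 36.2 in H, nor did its partner Arnt. Of AHR target members, Cyp1a2 stood at 137, 248 and 351 in H and 0.108 to 4.72 in cholangiocytes, while Cyp1a1 stayed at or below 0.202 in all libraries. Cyp2s1, which also responds to AHR, went the other way, at 6.31 to 72.0 in cholangiocytes and 0 to 0.756 in H.

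Of the 27 members under the filter, Cyp2j12, Cyp4a29 and Cyp4a30b were listed at 0 in all 10 libraries, and 7 reached 1 deposited TPM in some library. Cyp1b1, a P450 of mesenchymal and other cells outside hepatocytes that oxidises oestrogens, was listed at 0.636, 0.490, 0.544 and 0.431 in HpC, at 0, 0.0337 and 0.0742 in pC and at 0, 0.0506 and 0 in H. With no filter, over 24930 genes, it was the 1 member called higher in HpC than in pC, by 0.56 ± 0.05 on the log2 scale (limma adjusted p = 0.00282), where 1.06% of all genes were higher and 1.34% lower. It was chosen after this result was seen. Stellate and fibroblast markers summed to 29.3 to 86.8 deposited TPM in HpC, 33.4 to 47.3 in pC and 1.24 to 1.66 in H, with 1 of 8 tested markers higher in HpC than in pC, and 3 of 6 mesothelial markers were higher in HpC and 1 lower. Among all genes that passed the filter, 2.0% were higher in HpC than in pC and 2.55% lower. The part of stellate, fibroblast or mesothelial cells in the level of Cyp1b1 was not tested.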

How the data were processed

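Per the labels' protocols, hepatocytes were sorted after liver perfusion and cholangiocytes from further digested nonparenchymal cells, and their RNA was amplified with a kit for small inputs and sequenced as single 50-base reads. The authors deposited 1 table per library with TPM per Ensembl transcript; the submitters' processing notes name kallisto, DESeq and mm10, without versions or roles. Transcripts were joined to genes by GENCODE M21. Of 85276 transcripts 81927 matched, and 3349 did not (4.22% to 9.06% of a library's TPM) and were left out. Deposited TPM sums to the same total in every library and holds no depth, so no count test was possible. The 14763 genes that reached 1 TPM in 3 or more libraries were tested. TPM was divided by trimmed-mean factors (30% of log ratios and 5% of levels trimmed at each end), which ran from 0.499 to 1.61. Group means on log2(scaled TPM + 1) were compared in 1 fit of all 10 libraries with limma 3.58.1 in R 4.3.3, whose variance prior followed the mean level, and Benjamini-Hochberg adjustment at 5%; intervals are 95% intervals from that fit and are not adjusted. A fold change on this scale understates changes of low genes. The script was tested on simulated data. Tables and figures used Python 3.11.15, pandas 2.3.3 and matplotlib 3.10.9.

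The members and gene lists were chosen with earlier results of these data known. Members named with values were those called between HpC and pC, the 10 highest in H, those higher in cholangiocytes than in H, the 3 highest in pC and in HpC, and the sex-dependent members over 1 TPM in H; other names were chosen after their values were seen. Alternatives covered scaling, pseudocount, filters, libraries left out, library weights, a replicate block, merging of copies and the transcripts summed.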

Additional observations from a re-analysis of the deposited data

Results flagged for a closer look

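The HpC group, with 4 libraries, was examined for a single library far from the others in each of the 51 tested members. Dixon's test at 95% singles out about 1 in 20 groups by chance, or 2.55 here, and 6 were found. That rate holds for normal, independent values. Scaled TPM near 0 and members that vary together need not follow it, so 6 against 2.55 cannot be read as an excess. Cyp2a4/Cyp2a5 was low in HpC4, at 2.28 scaled TPM against 31.9 to 45.6 in the other 3, and HpC4 also had the lowest median of the hepatocyte markers in the group. Cyp2s1 was high in HpC2, at 72.0 against 10.6 to 13.9, in the library that held squamous markers. Of 3 members high in HpC3, Cyp2c69 stood at 5.23 against at most 0.241, Cyp4a31 at 0.711 against at most 0.0874, and Cyp2c54 at 0.122 where the other 3 were listed at 0. Cyp4a32 was high in HpC1, at 1.06 against at most 0.0262. Of the 50-base windows of the longest transcripts, 54.8% of Cyp2c69, 46.8% of Cyp4a32, 25.7% of Cyp2c54 and 21.8% of Cyp4a31 also occur in another gene. Reads may thus have been split between relatives, and these 4 levels are not certain to belong to 1 gene each.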

How the results depend on the processing

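For the 24 units named by rule, 1608 values under the alternatives kept their side of the threshold, 12 gained a call and 11 lost one. Small differences that did not pass could still change sign among the 1608. Cyp4f14 in pC against H, for example, was 0.11 and without pC1 -0.01. The 1 called difference that reversed was Cyp2d22 in pC against H, at 0.36 on TPM as deposited. By group means, Cyp2j6 in HpC, Cyp4f13 in pC, and Cyp2j9 and Cyp4f17 in both, called lower than H, were above H on that scale too. No member was higher in HpC than in pC, against 1 with no filter, 2 with library weights, 4 with the replicate block, 3 without HpC4 and pC3 together (added after seeing the data) and 0 to 5 when 1 replicate was left out. In HpC 4 members were lower than in pC, against 2 with the replicate block, 2 with only the compared groups in the fit, and 2 to 5 with 1 replicate left out. Members higher than in H numbered 2 in HpC, against 4 with no filter and 1 with a 5 TPM filter, and 2 in pC, against 5 on TPM as deposited and 1 with a 5 TPM filter. Causes were not tested. Same-numbered libraries of different groups correlated at -0.05 to 0.08 and differently numbered ones at -0.18 to 0.17, so no pairing by number showed. With so few libraries this cannot tell whether samples share an animal or a batch. HpC4 drops out of the replicate block, which changed calls in HpC against pC only. Merging at 90% protein identity was not run, since no protein table was used here; merging by shared 50-base windows, added after seeing the data, left the counts for HpC against pC at 0 and 4. Depth is unknown and limits the reading of low values.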
